A study of Homo sapiens with 9 samples.

Results

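Gene expression was compared between OVCAR3 cells that carried shRNA#78 against GPX3, called sh78 here, and OVCAR3 cells that carried a scramble hairpin. OVCAR3 is an established human line of high-grade ovarian carcinoma. The comparison took 6 of the 9 libraries of the series, 3 labelled as GPX3 knock-down with sh78 and 3 labelled WT with the scramble hairpin. The other 3 carried shRNA#76 against the same gene, called sh76 here, and were used to show where sh78 differed from another hairpin. All groups were grown for 72 h in RPMI medium with fetal bovine serum and bovine insulin. The vector, the hairpin sequences and whether each line was a pool or a clone are not given in the sources used here, and all groups share 1 cell line. The replicates carry the numbers 1 to 3 in every group, and nothing in the labels says that they came from separate transductions, so p-values measure only the spread between these samples, which may be technical.

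GPX3 encodes glutathione peroxidase 3, a secreted selenium-containing enzyme that uses glutathione to reduce hydrogen peroxide and lipid peroxides outside the cell. A short hairpin RNA is processed by the cell's microRNA machinery into a small guide that lowers mRNAs with a matching sequence, and it can also lower other mRNAs that match its seed. GDF15, which the title of the series names beside GPX3, encodes a secreted stress-induced member of the TGF-beta superfamily and is a known target of the transcription factors of the integrated stress response.

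The libraries held between 14652965 and 21327562 counts, and 17023 of 58735 genes had enough counts to be tested. Levels are given as CPM, which are counts relative to library size with TMM scaling, and levels of different genes are compared only in FPKM, which is also divided by gene length. A gene is called at an edgeR quasi-likelihood adjusted p under 0.05 with the shared replicate numbers as a block in the fit, and "higher" or "lower" is with sh78 relative to scramble. Markers of serous ovarian carcinoma were present in all libraries. PAX8, the Müllerian lineage factor, lay between 114 and 135 FPKM, and MUC16, MSLN, EPCAM, WFDC2, SOX17 and WT1 were all at 16 FPKM or more in every scramble and sh78 library. ESR1 was near 0, with 7 to 25 counts per library. The listed carcinoma markers summed to 2270 to 2420 FPKM with scramble and 1950 to 2100 FPKM with sh78, and the keratins KRT7, KRT18 and KRT19 had the highest levels. Among them EPCAM, KRT18, KRT19 and FOLR1 were called lower, and KRT7 and WFDC2 higher. Of markers of other cell types, the leukocyte marker PTPRC had 4 to 22 counts and the fibroblast marker LUM 0 to 3 counts per library, whereas COL1A1 had 397 to 919 counts and the endothelial receptor gene KDR 139 to 351. Mesothelial markers summed to 14.4 to 18.3 FPKM with scramble and 14.9 to 19.9 FPKM with sh78, mostly UPK3B, which was not called (0.01), while CALB2 had at most 11 counts. LRRN4, another of them, had 0.533 to 1.35 FPKM with scramble and 1.39 to 2.06 FPKM with sh78 (log2 fold change 1.12) and was not called without the replicate block. The part of these markers in the results was not tested. In a bulk sample, fewer cells of a kind and less RNA per cell cannot be told apart.

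Of the 17023 genes tested, 3388 (19.9%) were called, 1666 of them higher (9.79%) and 1722 lower (10.1%). Most of these differences were small. The median of the called log2 fold changes was 0.30 among the higher and −0.30 among the lower genes, and 2689 of the called genes (79.4%) changed by less than 1.5-fold. Changes of at least 2-fold were called in 261 genes (1.53% of those tested), 114 higher (0.67%) and 147 lower (0.864%). The median log2 fold change over all tested genes was 0.006. All 3 sh78 libraries lay beyond all 3 scramble libraries in 2331 of the called genes (68.8%), and 3324 (98.1%) had the same sign in all 3 same-numbered pairs. Of all tested genes, 10.2% had every sh78 library above every scramble library and 11.2% had every one below. Both shares among the called genes follow in part from the call itself and are not independent support. Without the replicate block 750 genes were called (4.41%), 315 higher (1.85%) and 435 lower (2.56%), and 749 of them were among the 3388. Of single genes described here, APOA1, PRSS35, SYNPO, FN1, VEGFA, HK2, CA12, PFKM, CD44, CDH2, VIM, BMP4, ME1, GSTA4, SELENOP, CRYAB, CSF1, BMF, KRT16, KRT17, KRT23, KRT80, KRT7, S100A14, DSC3, ERN1, FADS2, SQLE, HMGCS1 and HLA-B were among those not called without the block.

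**Figure D1:**
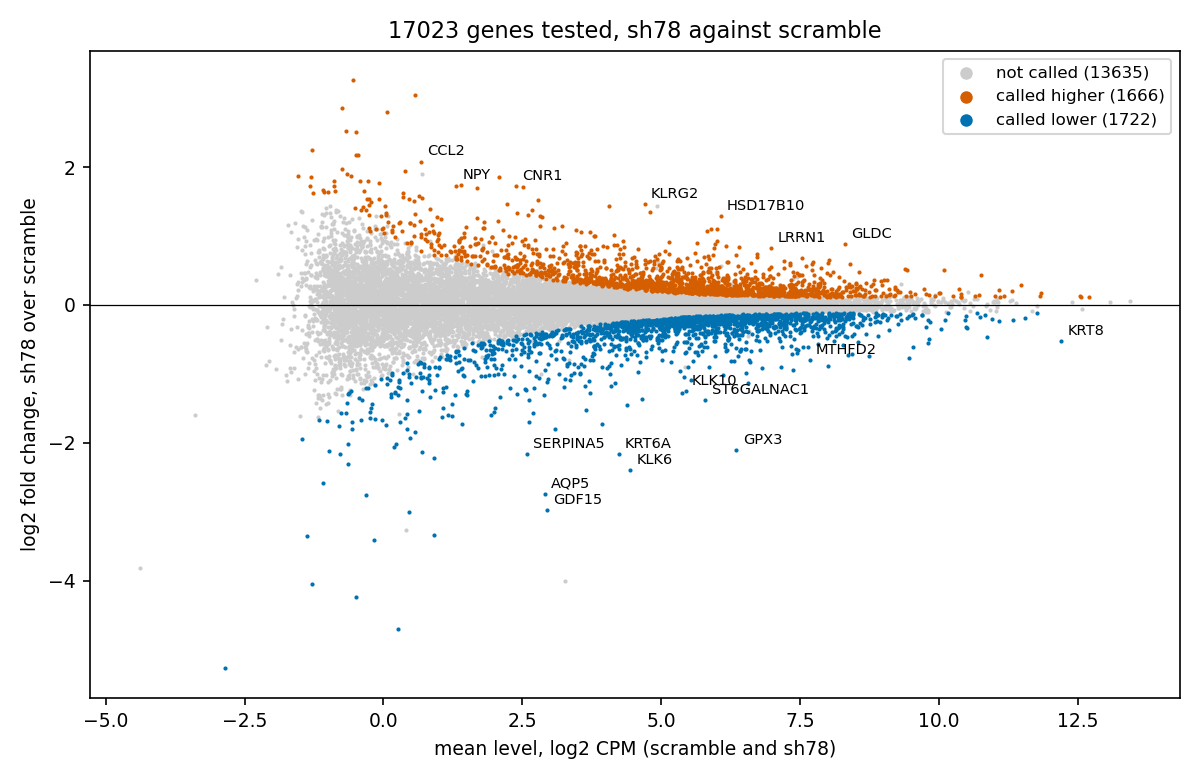
Log2 fold change of sh78 over scramble (y axis) against the mean level of the scramble and sh78 libraries in log2 CPM (x axis), 1 point per tested gene, with genes called higher in orange and called lower in blue. Called genes of high level lie close to 0, and GDF15, AQP5, KLK6, KRT6A and GPX3 lie between −2 and −3.

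The hairpin's target was examined first. GPX3 (chr5:151020438-151028993, plus strand, GRCh38) had 173, 109 and 117 CPM in scramble replicates 1 to 3 and 35.3, 28.4 and 28.3 CPM with sh78. Every sh78 library lay far below every scramble library, and scramble replicate 1 was the highest of all. The log2 fold change was −2.11 ± 0.12 (SE; quasi-likelihood adjusted p = 1.63e-05), so that 23.2% of the scramble level remained. Compared with sh76, the level under sh78 was lower still, by −0.88 ± 0.13 (SE; quasi-likelihood adjusted p = 0.00292). GDF15 (chr19:18374731-18389176, plus strand) had 13.4, 14.2 and 13.2 CPM with scramble and 1.19, 1.65 and 2.4 CPM with sh78, so that its groups did not overlap. Its log2 fold change of −2.98 ± 0.21 (SE; quasi-likelihood adjusted p = 5.83e-11) was the most negative among protein-coding genes that passed the filters of the naming rule. These include at least 1 FPKM in a group, and the keratin gene KRT13, which stayed under that level, had −3.01. With sh76 the libraries held 1.79, 4.55 and 4.44 CPM of GDF15, and the difference of sh78 from sh76 was −1.06 ± 0.25 (SE; quasi-likelihood adjusted p = 0.00334).

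**Figure D2:**
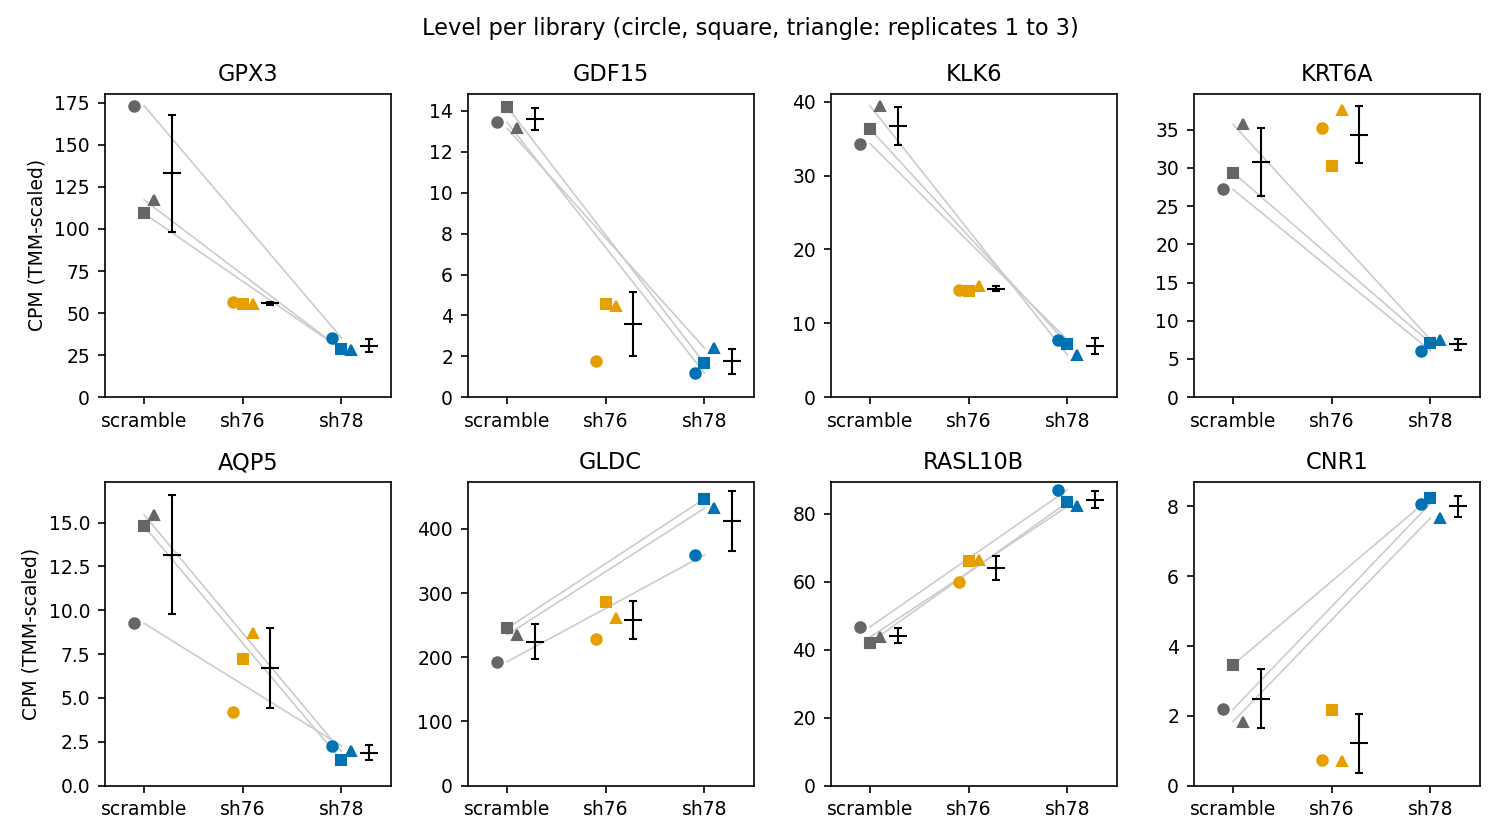
TMM-scaled CPM (y axes, each from 0) of 8 genes in every library of the scramble (grey), sh76 (orange) and sh78 (blue) groups; the black bar is the group mean ± SD (n = 3), and grey lines join scramble and sh78 libraries with the same replicate number. KRT6A stays at 30.2 to 37.6 CPM with sh76 and lies at 6.09 to 7.54 CPM with sh78, whereas GPX3, GDF15 and KLK6 are intermediate with sh76.

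Functions were described with 41 gene lists that share no gene, 906 of whose 996 entries were tested. An entry that was not tested had at most 53 counts in any library. Each list is given by its counts of called genes and its median log2 fold change, to be read against the 9.79% called higher, the 10.1% called lower and the median of 0.006 over all tested genes. The called shares depended on level. Among genes of 26.3 FPKM and more, 14.1% were called higher and 22.5% lower, with a median of −0.03. For lists of highly expressed genes the shares over all tested genes are therefore a lenient reference.

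**Figure D3:**
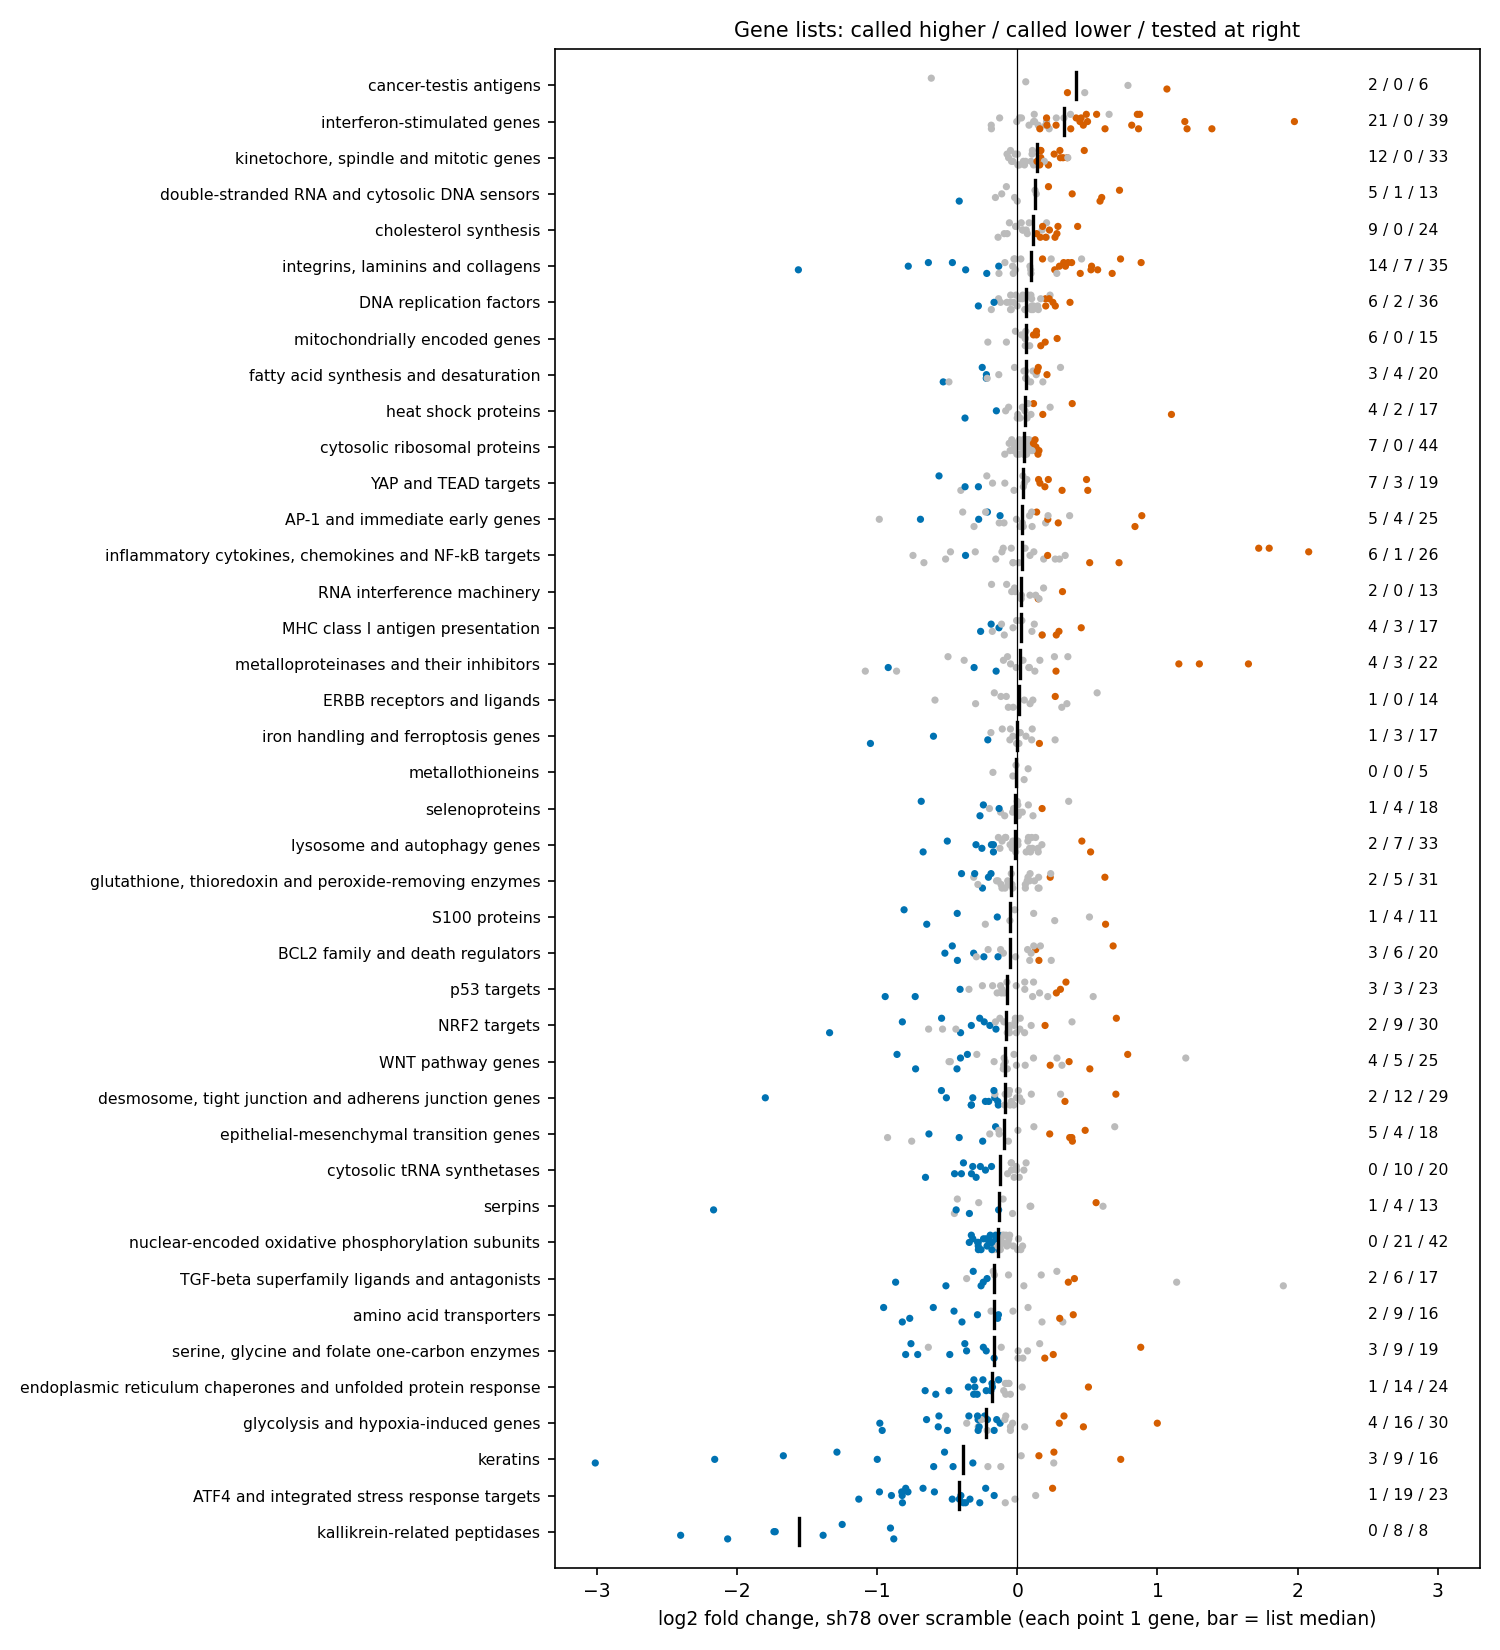
Log2 fold change of sh78 over scramble (x axis) of every tested gene in 41 lists (rows, ordered by median), with called genes in orange (higher) or blue (lower), others in grey and the list median as a black bar; numbers at right are called higher, called lower and tested. The kallikreins, the ATF4 targets and the keratins have the lowest medians, −1.56, −0.41 and −0.39, and the interferon-stimulated genes have 21 called higher and 0 called lower.

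The kallikrein-related peptidases, a family of secreted serine proteases encoded side by side on chromosome 19, fell in every tested member. Of 15 listed members, 8 were tested and all 8 were called lower, with a median log2 fold change of −1.56. KLK6 had 34.3, 36.3 and 39.4 CPM with scramble and 7.76, 7.22 and 5.72 CPM with sh78. Every scramble library lay far above every sh78 library, and the log2 fold change was −2.40 ± 0.10 (SE; quasi-likelihood adjusted p = 2.06e-21). KLK5, which activates other kallikreins in skin, had 344, 320.0 and 335 CPM with scramble and 167, 179 and 198 CPM with sh78, a log2 fold change of −0.88 ± 0.05 (SE; quasi-likelihood adjusted p = 1.72e-18). Both genes separated the groups completely. KLK7, another protease of the skin barrier, fell by 1.73 on the log2 scale and KLK10 by 1.25 (quasi-likelihood adjusted p = 1.45e-14 and 5.15e-17). KLK8, KLK11, KLK13 and KLK14 also fell, the last 3 from levels of only 1.11 to 1.83 CPM with scramble. With sh78 KLK11 had 7, 10 and 4 counts and KLK14 11, 8 and 4. These lie near the filter's minimum count of 10, so both genes entered the test mainly through the other groups. No untested kallikrein had more than 12 counts in any library. Without the block 7 of the 8 were called, KLK13 being the exception.

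For most kallikreins the decrease was larger with sh78 than with sh76. With sh76, 6 of the 8 were called lower, with a median of −0.95, and 5 of the 8 were lower with sh78 than with sh76. KLK5 with sh76 had 334, 359.9 and 372 CPM, a log2 fold change of 0.09 ± 0.04 (SE; quasi-likelihood adjusted p = 0.148) against scramble, and the difference between the hairpins was −0.97 ± 0.05 (SE; quasi-likelihood adjusted p = 6.06e-20). The sh76 libraries of KLK5 thus lay with scramble and not with sh78. KLK6 by contrast fell with sh76 as well, by 1.32 on the log2 scale, and fell further with sh78. With C19orf48 the 8 kallikreins formed the longest run of neighbouring tested genes that were called in the same direction, 9 genes between positions 50797704 and 51084245 of chromosome 19, whose median was −1.39 with sh78 and −0.68 with sh76 on the log2 scale. SERPINA5, a secreted inhibitor of serine proteases encoded elsewhere, had 13.1, 7.75 and 8.73 CPM with scramble and 3.12, 1.17 and 2.27 CPM with sh78. Its groups did not overlap, and its log2 fold changes were −2.17 with sh78 and −1.89 with sh76.

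Keratins, the intermediate filament proteins of epithelia, fell with sh78 more often than they rose. Of 16 tested keratins, 9 were lower, 3 were higher and the median log2 fold change was −0.39. With sh76 the counts were 3 lower and 7 higher, with a median of 0.26, and 10 of the 16 were lower with sh78 than with sh76. KRT6A, a keratin of stratified and wounded epithelium, had 27.2, 29.4 and 35.7 CPM with scramble, 35.2, 30.2 and 37.6 CPM with sh76 and 6.09, 7.08 and 7.54 CPM with sh78. The sh76 libraries overlapped those of scramble, and the sh78 libraries lay below all 6 others. The log2 fold change was −2.16 ± 0.10 (SE; quasi-likelihood adjusted p = 7.72e-21) against scramble and −2.32 ± 0.10 (SE; quasi-likelihood adjusted p = 2.35e-22) against sh76. KRT13 fell from 2.47 ± 0.758 to 0.299 ± 0.117 CPM (mean ± SD, n = 3), KRT15 from 22.6 ± 2.2 to 11.4 ± 1.54 CPM and KRT17 from 7.47 ± 1.63 to 3.15 ± 1.38 CPM. With sh78 KRT13 had 8, 3 and 4 counts and KRT16 had 3, 7 and 7. These lie under the filter's minimum count of 10, so both genes entered the test through the other groups. The simple-epithelial pair KRT8 and KRT18 fell less, by 0.52 and 0.46 on the log2 scale, from 5562 and 2177 CPM. KRT23 (0.74), KRT80 (0.26) and KRT7 (0.15) rose. The call of KRT7 was lost without scramble replicate 2 or scramble replicate 3. KRT13, KRT15, KRT19, KRT16 and KRT17 are neighbours on chromosome 17, and with EIF1 they formed a run of 6 lower genes whose median was −1.14 with sh78 and 0.16 with sh76. Keratin genes have close copies (KRT6A with KRT6B and KRT6C, KRT16 and KRT17 with pseudogenes), so their counts are uncertain to the extent that reads were shared. Without the block 6 were called lower and 0 higher.

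**Figure D4:**
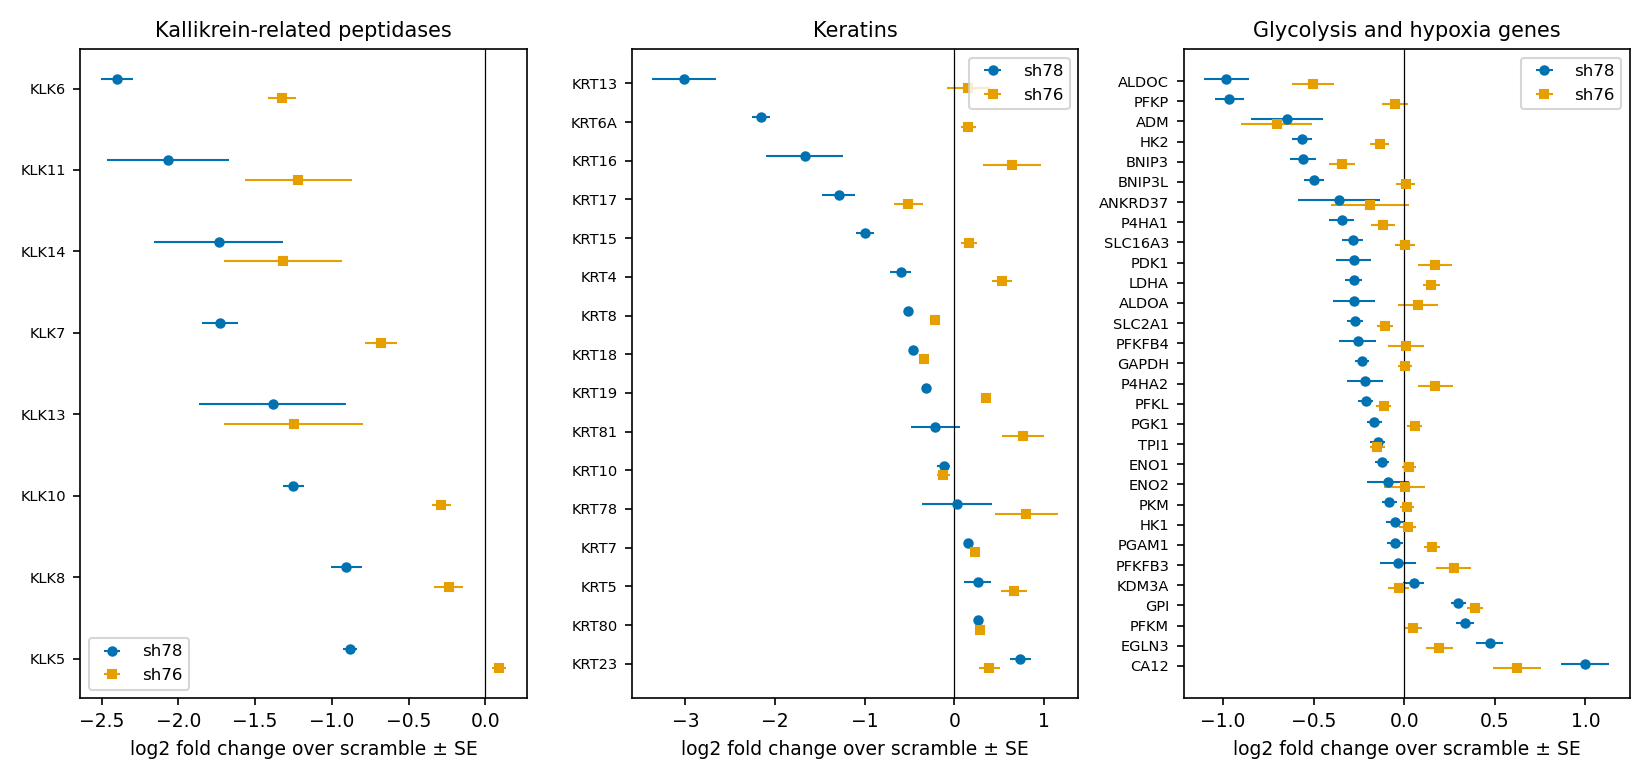
Log2 fold change over scramble ± SE (x axes) of the tested kallikreins, keratins and glycolysis or hypoxia genes (rows), for sh78 (blue circles) and sh76 (orange squares). All kallikreins lie left of 0 with sh78, and KRT6A, KRT13, KRT16 and PFKP lie far left of 0 with sh78 but not with sh76.

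Genes of cell junctions and of epithelial attachment were examined next. Of 29 tested junction genes 12 were lower and 2 higher (median −0.09), among them the tight junction gene OCLN (−0.33), the desmosomal cadherin DSC3 (−0.51), EPCAM (−0.33) and CDH1 (−0.23), which encodes E-cadherin. GJA1, the gene of connexin 43, rose from 80.7 ± 4.3 to 132 ± 18.5 CPM. Within the list of integrins, laminins and collagens, which moved in both directions (14 of 35 higher and 7 lower), COL17A1, a collagen of the hemidesmosome, fell from 9.57 ± 0.727 to 3.29 ± 1.1 CPM, and LAMB3, a chain of laminin-332, from 73.6 ± 4.19 to 53.5 ± 3.1 CPM. Both were lower with sh78 than with sh76 (quasi-likelihood adjusted p = 7.92e-11 and 1.45e-17). Of 11 S100 calcium-binding proteins 4 were lower, S100A14 (−0.81), S100A16 (−0.65), S100A6 (−0.43) and S100A11 (−0.14), 1 was higher, and 9 were lower with sh78 than with sh76. S100A4, which was counted with the epithelial-mesenchymal transition genes, was lower too (−0.42). The call of S100A11 was lost without any one of 6 libraries, 2 from each group. Without the block 5 junction genes were called lower and 1 higher, and 2 S100 proteins lower.

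Targets of ATF4, the transcription factor that the integrated stress response induces to restore amino acid supply and limit damage, were mostly lower. Of 23 tested genes 19 were lower and 1 was higher, with a median log2 fold change of −0.41. CHAC1, a glutathione-degrading enzyme, had 29.6, 24.4 and 20.2 CPM with scramble and 11.9, 13.2 and 8.83 CPM with sh78. TRIB3, a pseudokinase that feeds back on ATF4, had 106, 93.3 and 93.1 CPM with scramble and 56, 52.3 and 56.8 CPM with sh78. All sh78 libraries of both genes lay below all scramble libraries, with log2 fold changes of −1.13 ± 0.10 (SE; quasi-likelihood adjusted p = 5.72e-12) and −0.82 ± 0.06 (SE; quasi-likelihood adjusted p = 4.76e-15). DDIT3, the gene of CHOP, fell by 0.98 on the log2 scale, SESN2 by 0.83 and ASNS, asparagine synthetase, by 0.82. DDIT3 overlaps the tRNA synthetase gene MARS on the other strand. The libraries do not keep the strand, so reads in that overlap cannot be told apart. VEGFA, which hypoxia also induces, fell from 75.5 ± 19.6 to 40.4 ± 9.28 CPM. KLHL24 was the gene that rose (0.25). With sh76, 16 of the 23 were lower and 0 higher, with a median of −0.36, and 4 were lower with sh78 than with sh76. Without the block 9 were lower and 0 higher.

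The supply of amino acids was represented by 3 further lists, in which most called genes were lower. Among 16 amino acid transporters 9 were lower and 2 higher (median −0.16). SLC7A5, the large neutral amino acid transporter, had 842, 888 and 931 CPM with scramble and 478, 569.8 and 517 CPM with sh78. The scramble libraries were all higher, and the log2 fold change was −0.77 ± 0.08 (SE; quasi-likelihood adjusted p = 0.000535). SLC7A11, the cystine importer that supplies glutathione synthesis, fell from 46.3 ± 10.5 to 26.1 ± 3.1 CPM, and SLC3A2, the shared heavy chain of both, from 368 ± 30.1 to 269 ± 17.8 CPM. Among 19 enzymes of serine, glycine and folate metabolism 9 were lower and 3 higher (median −0.17). MTHFD2, a mitochondrial folate enzyme, had 306, 243 and 229.7 CPM with scramble and 172, 142 and 133 CPM with sh78, a log2 fold change of −0.80 ± 0.04 (SE; quasi-likelihood adjusted p = 2e-18). The groups did not overlap although replicate 1 was the highest in each of them. PSAT1, of serine synthesis, fell from 432 ± 30.7 to 264 ± 17.6 CPM and PYCR1, of proline synthesis, from 136 ± 10.9 to 97.2 ± 3.55 CPM. GLDC, which breaks glycine down in mitochondria, rose instead. It had 193, 245 and 235 CPM with scramble and 359.5, 447 and 432 CPM with sh78, without overlap, and its log2 fold change was 0.88 ± 0.04 (SE; quasi-likelihood adjusted p = 1.17e-20). Against sh76 GLDC differed by 0.68 ± 0.04 (SE; quasi-likelihood adjusted p = 6.11e-17), whereas MTHFD2 differed by −0.01 ± 0.04 (SE; quasi-likelihood adjusted p = 0.917). Of 20 cytosolic tRNA synthetases 10 were lower and 0 higher (median −0.13), led by AARS, which fell from 134 ± 10.7 to 85.4 ± 13.2 CPM, and GARS, from 184 ± 15.6 to 135 ± 5.39 CPM. The 2 transporters called higher were not both called when sh78 replicate 1, sh78 replicate 3 or scramble replicate 3 was left out (0, 1 and 1 called). With sh76 the lower counts of the 3 lists were 8, 9 and 9 and the higher counts 1, 4 and 0. Their medians with sh76 were −0.17, −0.26 and −0.11. Without the block the lower counts of the 3 lists with sh78 were 6, 6 and 9.

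Promoters of these genes were searched for the element that ATF4 binds with its partners, spelled TGATGNAA on either strand, in windows from 250 bases before to 50 bases after the RefSeq start (GRCh38.p14). A promoter was matched for 11958 tested genes, and 1.76% of them held the element. It was found in 6 of 16 tRNA synthetase promoters (37.5%), 3 of 15 amino acid transporter promoters (20%) and 3 of 20 promoters of the ATF4 list (15%), against 2.46% of all genes called lower. In the list of serine, glycine and folate enzymes 1 of 11 promoters held it (9.09%). The lists were put together from known targets, so that the element's frequency in them is a description. Windows of 28 bases around it are shown for 4 genes that fell with sh78, on the strand of the gene, with the match in capitals. In ASNS it reads in the direction of the gene, and in the other 3 it lies on the opposite strand.
CHAC1 chr15:40953252-40953279 (plus strand): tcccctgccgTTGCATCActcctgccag
ASNS chr7:97872459-97872486 (minus strand): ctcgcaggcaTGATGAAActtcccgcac
AARS chr16:70289676-70289703 (minus strand): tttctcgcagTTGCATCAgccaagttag
MARS chr12:57488054-57488081 (plus strand): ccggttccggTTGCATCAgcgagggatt
The log2 fold changes of these genes were CHAC1 −1.13, ASNS −0.82, AARS −0.66 and MARS −0.33, where MARS encodes the methionyl-tRNA synthetase.

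Genes of protein folding in the endoplasmic reticulum, which the unfolded protein response induces, were also more often lower than higher with sh78. Of 24 tested 14 were lower and 1 higher, with a median of −0.18. XBP1, a transcription factor of that response, had 376, 394 and 347 CPM with scramble and 252, 248 and 245 CPM with sh78. All its sh78 libraries were lower, and the log2 fold change was −0.58 ± 0.04 (SE; quasi-likelihood adjusted p = 2.05e-14). HERPUD1, of the degradation pathway for misfolded proteins, fell by 0.66 on the log2 scale, and the stress sensors ERN1 (−0.49) and ATF6 (−0.35) fell as well. CREB3L2 rose (0.51). With sh76, 5 were lower and 2 higher (median −0.05), and 10 were lower with sh78 than with sh76, XBP1 by −0.30 ± 0.04 (SE; quasi-likelihood adjusted p = 5.02e-07). Without the block 4 were lower and 1 higher. The heat shock proteins, cytosolic and mitochondrial, showed no common direction, with 4 of 17 higher and 2 lower (HSPA1A and the mitochondrial chaperonin HSPD1). Without the block 0 were called in either direction. CRYAB, a small heat shock protein, rose from 37.8 ± 11.4 to 81.4 ± 25.5 CPM. Leaving out scramble replicate 2 left 2 higher, and leaving out scramble replicate 3, sh78 replicate 1 or sh78 replicate 3 left 0 lower.

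Interferon-stimulated genes, which cells induce through the JAK-STAT pathway against viruses and foreign nucleic acid, were often higher with sh78. Of 39 tested 21 were higher and 0 lower, with a median log2 fold change of 0.33, and the sh78 libraries lay above all scramble libraries in 18 of the 39, beside 10.2% of all tested genes. MX1, an antiviral GTPase, had 12.5, 10.3 and 14.9 CPM with scramble, 10.9, 9.6 and 14.4 CPM with sh76 and 24.9, 17.3 and 26.8 CPM with sh78. The sh78 libraries were above all others, and the log2 fold change was 0.87 ± 0.10 (SE; quasi-likelihood adjusted p = 3.96e-09) against −0.11 with sh76. IFI44L, an interferon-induced gene used as a marker of the response, had 9.58, 9.1 and 7.87 CPM with scramble and 16.8, 15.5 and 15.7 CPM with sh78, again without overlap and with a log2 fold change of 0.86 ± 0.11 (SE; quasi-likelihood adjusted p = 1.58e-07). MX2 rose from 2.11 ± 0.395 to 4.9 ± 0.487 CPM, RSAD2, which encodes the antiviral enzyme viperin, from 0.985 ± 0.202 to 2.58 ± 0.517 CPM, and IFIT1, which binds foreign RNA ends, from 4.1 ± 1.1 to 7.44 ± 0.382 CPM. Most of these levels were low: the mean FPKM with sh78 was 2.65 for MX1, 1.55 for IFI44L and 1.6 for IFIT1. With sh76, 12 were higher and 1 lower (median 0.20), and 11 were higher and 1 lower with sh78 than with sh76. Without the block 13 were higher and 0 lower. Leukocyte markers summed to 0.806 to 1.39 FPKM with scramble and 1.57 to 1.82 FPKM with sh78, with CD3E, CD68 and NKG7 at 6 counts or fewer in every library.

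Among 13 sensors of double-stranded RNA and cytosolic DNA, 5 were higher and 1 lower. DDX58, the gene of the RNA sensor RIG-I, rose from 18.7 ± 2.65 to 28 ± 1.96 CPM, and IFIH1, the gene of MDA5, from 7.5 ± 0.482 to 11.4 ± 1.11 CPM. ADAR, which edits double-stranded RNA and is known to limit the response of these sensors, had 422, 386 and 406 CPM with scramble, 461, 449 and 478 CPM with sh76 and 293, 314 and 303 CPM with sh78. All sh78 libraries were the lowest of the 9, with a log2 fold change of −0.41 ± 0.04 (SE; quasi-likelihood adjusted p = 3.95e-10), and the log2 fold change was 0.19 ± 0.04 (SE; quasi-likelihood adjusted p = 0.000609) with sh76. The count of higher sensors was 3 without scramble replicate 1, sh78 replicate 1 or sh78 replicate 3. The RNA interference machinery had 2 of 13 genes higher (DROSHA 0.15 and TNRC6C 0.32) and 0 lower. When scramble replicate 3 was left out, 0 were called higher. Without the block 3 sensors were higher and 1 lower, and 0 genes of RNA interference were called.

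Promoters of the interferon-stimulated genes were searched in the same windows for the interferon-stimulated response element, that is, 2 copies of GAAA with 2 bases of any kind between them, on either strand. It was found in 2.68% of all 11958 promoters, in 4.08% of those of genes called higher and in 2.46% of those of genes called lower. Of 30 promoters in the list 21 held it (70.0%), and of the 17 whose gene was called 15 did (88.2%). This list too was put together from known interferon-stimulated genes, so that the element's frequency in it is a description. The share among genes called higher includes the called members of the list. Windows of 28 bases are shown for 4 of the called genes, with the match in capitals.
MX1 chr21:41420560-41420587 (plus strand): agcagaaatGAAACCGAAActgaattgt
IFIT1 chr10:89392498-89392525 (plus strand): tagctttagTTTCACTTTCccctttcgg
IFI44L chr1:78620275-78620302 (plus strand): cctagtgagGAAAAAGAAAgttagtggc
ISG15 chr1:1013375-1013402 (plus strand): atgcctcggGAAAGGGAAAccgaaactg
Their log2 fold changes were MX1 0.87, IFIT1 0.86, IFI44L 0.86 and ISG15 0.45, where ISG15 encodes a ubiquitin-like modifier. In IFIT1 the match lies on the opposite strand, and IFIT1, IFI44L and ISG15 each held 2 matches in the window searched.

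Glycolytic and hypoxia-induced genes, many of them targets of the factor HIF-1, were more often lower than higher with sh78. Of 30 tested 16 were lower and 4 higher, with a median of −0.22. PFKP, the platelet form of the rate-limiting glycolytic enzyme phosphofructokinase, had 47.6, 59.5 and 53.9 CPM with scramble, 47.7, 52.9 and 54.8 CPM with sh76 and 19.9, 32.9 and 30.6 CPM with sh78. Its sh76 libraries overlapped those of scramble, its sh78 libraries lay below both, and the log2 fold change was −0.96 ± 0.08 (SE; quasi-likelihood adjusted p = 5.92e-10). HK2, a hexokinase, fell from 91.5 ± 18.6 to 61.5 ± 5.5 CPM, ALDOC, an aldolase, from 15.4 ± 1.79 to 7.8 ± 1.62 CPM, and BNIP3L, a mitophagy receptor, from 99.7 ± 3.01 to 70.6 ± 3.49 CPM. LDHA, lactate dehydrogenase, fell by 0.28 on the log2 scale with sh78 and rose by 0.15 with sh76. CA12, a carbonic anhydrase, rose from 9.31 ± 1.29 to 18.6 ± 4 CPM and the muscle phosphofructokinase PFKM from 91.8 ± 11.5 to 115 ± 11.9 CPM. With sh76, 5 were lower and 4 higher (median 0.01), and 17 were lower with sh78 than with sh76. Without the block 8 were lower and 1 higher.

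Of 42 tested nuclear-encoded subunits of oxidative phosphorylation 21 were lower, by small amounts, and 0 higher, with a median of −0.14, and the sh78 libraries lay below all scramble libraries in 22 of them, beside 11.2% of all tested genes. COX5B, of the terminal oxidase, fell from 149 ± 4.62 to 119.8 ± 0.941 CPM, SDHB, of succinate dehydrogenase, from 57.2 ± 2.67 to 47 ± 1.06 CPM, and NDUFS7, of complex I, from 25.8 ± 1.77 to 20.4 ± 2.23 CPM. NDUFS7 was not called without sh78 replicate 1. Of the 15 protein-coding and ribosomal RNA genes of mitochondrial DNA, 6 were higher and 0 lower (median 0.06). Among all 31 tested genes of mitochondrial DNA, which include tRNA genes outside that list, 6 were higher and 4 lower; the 4 are the tRNA genes MT-TS1, MT-TD, MT-TL1 and MT-TC, named after their values were seen. MT-CYB, cytochrome b, had 2506, 2656 and 2616 CPM with scramble and 3077, 3138 and 3254 CPM with sh78, without overlap, a log2 fold change of 0.28 ± 0.04 (SE; quasi-likelihood adjusted p = 1.26e-07). Among the subunits 13 were called lower without scramble replicate 3, and among the mitochondrial genes 3 were called higher without scramble replicate 1 or without sh78 replicate 1. With sh76, 16 subunits were lower and 1 higher, with a median of −0.11. Without the block 4 subunits were lower and 1 mitochondrial gene higher with sh78.

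Lists close to the function of GPX3 itself had medians near 0. Of 18 tested selenoprotein genes 4 were lower and 1 higher (median −0.01), a count that leaves out the selenoproteins GPX3, the hairpin's target, and TXNRD1, which is counted with the NRF2 targets below. SELENOP, the secreted carrier of selenium, fell from 7.09 ± 1.94 to 4.51 ± 2.22 CPM. Of 31 enzymes of glutathione, thioredoxin and peroxide removal 5 were lower and 2 higher (median −0.04), among them the glutathione transferase GSTP1 (−0.30), the synthetase GSS (−0.25) and the mitochondrial peroxiredoxin PRDX3 (−0.21). GSTA4, which removes lipid peroxidation products, rose from 8.98 ± 1.22 to 13.8 ± 1.8 CPM. The lower count was 3 without sh78 replicate 1 and 8 without sh78 replicate 2. NRF2 targets, which oxidants induce, had 9 of 30 lower and 2 higher (median −0.08). TXNRD1, thioredoxin reductase, had 401, 443 and 486 CPM with scramble, 369, 372 and 422 CPM with sh76 and 279.8, 311 and 322 CPM with sh78. The sh78 libraries were the lowest of the 9, and the log2 fold change was −0.54 ± 0.04 (SE; quasi-likelihood adjusted p = 1.12e-13). NQO1, a quinone reductase, fell with sh78 (−0.41) and rose with sh76 (0.19, quasi-likelihood adjusted p = 0.00358), and ME1, malic enzyme, fell from 61.3 ± 18.3 to 34.6 ± 8.79 CPM. The higher NRF2 targets were 1 without scramble replicate 2. Of 17 genes of iron handling and ferroptosis 3 were lower and 1 higher, and none of 5 metallothioneins was called. Without the block 3 NRF2 targets, 1 redox enzyme, 1 iron gene and 0 selenoproteins were called.

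Of 24 tested cholesterol synthesis genes, which SREBP2 controls, 9 were higher and 0 lower, with a median of 0.11. HMGCS1, an early enzyme of the pathway, rose from 399 ± 42.3 to 482 ± 58.7 CPM (mean ± SD, n = 3), with overlapping groups and the same direction in all 3 same-numbered pairs, a log2 fold change of 0.27. SQLE, which oxidises squalene, rose by 0.29 on the log2 scale. Fatty acid genes had 3 of 20 higher and 4 lower. The desaturases FADS1 and FADS2 fell from 167 ± 24.1 to 115 ± 7.46 CPM and from 251 ± 26.1 to 214 ± 1.38 CPM, and with FADS3, RAB3IL1, BEST1 and FTH1 they formed a run of 6 neighbouring lower genes on chromosome 11 (61792980 to 61967660) with a median of −0.43, and −0.36 with sh76. Without the block 2 cholesterol genes were higher and 1 fatty acid gene lower, and the 3 fatty acid genes called higher were 1 or 0 when any single scramble library or sh78 replicate 1 or 2 was left out.

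Of 33 kinetochore, spindle and mitotic genes, 12 were higher, by small amounts, and 0 lower, with a median of 0.14. MKI67, a proliferation marker, had 405, 408 and 393 CPM with scramble and 506, 530.1 and 458 CPM with sh78, a log2 fold change of 0.31 ± 0.04 (SE; quasi-likelihood adjusted p = 4.59e-07). All its sh78 libraries were above all scramble libraries. SPC24, of the kinetochore, rose from 49.2 ± 5.81 to 68.5 ± 3.95 CPM, and the mitotic kinesin KIF20A from 77.7 ± 3 to 99.6 ± 5.39 CPM. Of 36 DNA replication factors 6 were higher, among them MCM3 and MCM4 of the replicative helicase (0.27 and 0.25), and 2 were lower. The p53 targets were mixed, with 3 of 23 higher and 3 lower. CDKN1A, the gene of the cell cycle inhibitor p21, fell from 9.89 ± 2.49 to 5.1 ± 0.982 CPM and PHLDA3, a repressor of AKT, from 63.1 ± 3.87 to 38.3 ± 5.82 CPM, whereas MDM2 rose (0.28). Regulators of apoptosis had 6 of 20 lower, among them the effector BAK1 (−0.46) and PMAIP1 (−0.52), and 3 higher, of which BMF (0.68) was the largest. With sh76, 11 mitotic genes were higher and 1 lower. Without sh78 replicate 2 the mitotic count was 7, and without the block it was 4. The smaller counts moved as well: the higher p53 targets were 1 without sh78 replicate 3, the lower ones 5 without scramble replicate 1, and the higher apoptosis genes 1 without scramble replicate 3 or sh78 replicate 1. The lower replication factors were 1 without scramble replicate 3, sh78 replicate 1 or sh78 replicate 3. Without the block 2 replication factors were higher and 0 lower, 1 p53 target was higher and 2 lower, and 0 apoptosis genes were higher and 2 lower.

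The list of integrins, laminins and collagens had a median of 0.10. FN1, fibronectin, had 14.8, 45 and 72.3 CPM with scramble and 23.2, 116 and 105 CPM with sh78. Its groups overlapped, and its log2 fold change of 0.88 ± 0.19 (SE; quasi-likelihood adjusted p = 0.042) was not called without the block (quasi-likelihood adjusted p = 0.707), nor without scramble replicate 1, sh78 replicate 1 or any sh76 replicate. TNC, tenascin C, rose from 79.5 ± 11.4 to 132 ± 8.41 CPM, COL5A2 from 73.1 ± 4.47 to 105 ± 8.18 CPM and the integrin subunit ITGB6 from 17.1 ± 0.941 to 27.3 ± 3.16 CPM. TNC was not called without scramble replicate 3 or without sh78 replicate 1. Subunits of other integrins fell, ITGB8 from 619 ± 57.3 to 480.0 ± 52 CPM and ITGAV from 268 ± 9.64 to 230.5 ± 16.6 CPM. Fibroblast markers summed to 2.82 to 4.03 FPKM with scramble and 3.48 to 4.77 FPKM with sh78, nearly all of it COL1A1, while LUM had at most 3 counts and DCN at most 11 in any library. Endothelial markers summed to 2.45 to 2.58 FPKM and 3.26 to 4.35 FPKM, mostly through KDR, a receptor for VEGF, which rose from 9.39 ± 0.666 to 18.8 ± 2.47 CPM. The count of lower genes was 4 without scramble replicate 1, scramble replicate 3 or sh78 replicate 3, and without the block 4 were higher and 3 lower.

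Genes of epithelial-mesenchymal transition showed no common direction, with 5 of 18 higher and 4 lower (median −0.10). CDH2, N-cadherin, rose from 61.4 ± 6.24 to 80.4 ± 7.36 CPM and VIM, vimentin, from 12.5 ± 1.04 to 16.1 ± 0.35 CPM. VIM was not called without scramble replicate 3 or without sh78 replicate 3. CD44, a hyaluronan receptor, had 31.6, 36.5 and 46.4 CPM with scramble, 54.3, 65.1 and 71.9 CPM with sh76 and 21.1, 22.8 and 29.9 CPM with sh78. Its sh78 libraries were the lowest and its sh76 libraries the highest, with log2 fold changes of −0.63 ± 0.07 (SE; quasi-likelihood adjusted p = 2.01e-09) and 0.75 ± 0.06 (SE; quasi-likelihood adjusted p = 1.46e-12). ADAMTS9, a secreted metalloproteinase, rose from 5.71 ± 0.691 to 12.8 ± 3.34 CPM and was not called with sh76 (−0.01), the difference between hairpins being 1.16 ± 0.14 (SE; quasi-likelihood adjusted p = 1.4e-08). Among metalloproteinases and their inhibitors 4 of 22 were higher, including ADAMTS9 and TIMP2 (0.28), and 3 lower. Of 17 TGF-beta superfamily genes 6 were lower, with BMP4 at −0.87 and the BMP target ID2 at −0.51, and 2 were higher. WNT pathway genes had 4 of 25 higher, led by the WNT inhibitor SFRP1, which rose from 24.6 ± 1.89 to 42.4 ± 4.94 CPM, and 5 lower. YAP targets had 7 of 19 higher and 3 lower, of which AMOTL2, a regulator of YAP, fell from 1064 ± 129.8 to 723 ± 91.3 CPM. The higher metalloproteinases were 2 without scramble replicate 2, and the higher TGF-beta genes 1 without scramble replicate 1 or sh78 replicate 2 and 4 without sh76 replicate 1. Counts of 4 or 3 were left for the YAP targets without scramble replicate 3, for the higher transition genes without scramble replicate 3, sh78 replicate 1 or sh78 replicate 3, and for the lower WNT genes without scramble replicate 1, 2 or 3 or sh78 replicate 2. Without the block 0 transition genes were called, 1 metalloproteinase was higher and 0 lower, 1 TGF-beta gene was higher and 2 lower, 2 WNT genes were higher and 0 lower, and 2 YAP targets were higher and 1 lower.

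Inflammatory genes included some of the largest increases from low levels. CCL2, a chemokine that attracts monocytes, had 0.193, 0.88 and 0.746 CPM with scramble and 2.32, 3.3 and 2.14 CPM with sh78, which were 3, 15 and 13 counts against 43, 48 and 33. Its groups did not overlap, and its log2 fold change of 2.08 ± 0.33 (SE; quasi-likelihood adjusted p = 5.29e-06) was the highest among the protein-coding genes that passed the naming rule. TNFAIP2, an NF-kB target of much higher level, rose from 554 ± 20.4 to 793 ± 57.9 CPM, and CSF1, a macrophage growth factor, from 8.38 ± 1.79 to 13.8 ± 3.09 CPM. In all 6 of 26 inflammatory genes were higher and 1 lower (median 0.03), and 3 were higher without scramble replicate 2. With sh76, 8 of the 26 were higher and 0 lower, with a larger median of 0.32. The neighbouring receptor genes IL1R2, IL1R1 and IL18R1 with SLC9A4 and SLC9A2 formed a run of 5 lower genes on chromosome 2 (101991844 to 102711318) with a median of −0.78, against 0.12 with sh76. IL1R1, the signalling receptor, had 145, 151 and 146 CPM with scramble and 64.8, 86.8 and 82.8 CPM with sh78, a log2 fold change of −0.92 ± 0.12 (SE; quasi-likelihood adjusted p = 0.00398). Antigen presentation by MHC class I had 4 of 17 higher, among them TAPBP (0.46), HLA-B (0.30) and ERAP1 (0.18), and 3 lower. The median was 0.02 with sh78 and 0.17 with sh76, where 3 were higher and 0 lower. Leaving out scramble replicate 2, scramble replicate 3 or sh78 replicate 3 left 2 higher, the lower count was 0 without sh78 replicate 1 and 1 without scramble replicate 1, scramble replicate 3 or sh76 replicate 3, and HLA counts depend on how reads of similar alleles were assigned. HLA-DRA, an MHC class II chain outside that list, had 5.98, 3.7 and 3.04 CPM with scramble and 9.1, 8.53 and 13.1 CPM with sh78, which do not overlap, and a log2 fold change of 1.28 ± 0.19 (SE; quasi-likelihood adjusted p = 2.57e-05). Without the block 2 inflammatory genes and 1 gene of antigen presentation were higher and 0 of either list lower.

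The remaining genes of large or precise change belong to varied functions. AQP5, a water channel of secretory epithelia, had 9.26, 14.8 and 15.4 CPM with scramble and 2.26, 1.44 and 1.95 CPM with sh78. All sh78 libraries were lower, with a log2 fold change of −2.74 ± 0.19 (SE; quasi-likelihood adjusted p = 1.46e-13) against −0.97 with sh76. ST6GALNAC1, which builds the tumour-associated sialyl-Tn antigen, had 110.2, 72.1 and 59.6 CPM with scramble and 38.9, 25 and 28.1 CPM with sh78, a log2 fold change of −1.38 ± 0.07 (SE; quasi-likelihood adjusted p = 5.41e-19). Its groups did not overlap, and scramble replicate 1 was the highest. TGM2, a protein-crosslinking transglutaminase, fell from 59.1 ± 8.97 to 24.3 ± 1.51 CPM, and FOLR1, the folate receptor of ovarian carcinoma, from 63.5 ± 5.67 to 29.9 ± 5.63 CPM. APOA1, the apolipoprotein of HDL, fell from 2.61 ± 0.421 to 0.633 ± 0.539 CPM and the serine-protease-like gene PRSS35 from 9.39 ± 4.41 to 2.89 ± 1.47 CPM; neither was called without the block (quasi-likelihood adjusted p = 0.0782 and 0.115). AC007325.4, a protein-coding model on an unplaced scaffold, fell by 2.02 on the log2 scale from scramble levels between 1.35 and 2.30 CPM. With sh78 APOA1 had 23, 3 and 7 counts and AC007325.4 had 13, 4 and 6, so both entered the test mainly through the scramble group.

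Among the genes that rose, CNR1, the cannabinoid receptor 1, had 2.19, 3.46 and 1.84 CPM with scramble, 0.74, 2.18 and 0.716 CPM with sh76 and 8.08, 8.25 and 7.67 CPM with sh78. The sh78 libraries were above all others, with a log2 fold change of 1.72 ± 0.21 (SE; quasi-likelihood adjusted p = 4.65e-08), whereas with sh76 it fell by 1.03. The difference between the hairpins was 2.75 ± 0.23 (SE; quasi-likelihood adjusted p = 8.67e-12). NPY, neuropeptide Y, rose from 1.15 ± 0.373 to 3.8 ± 0.203 CPM, LAMP5, a membrane protein of the LAMP family, from 1.51 ± 0.416 to 4.91 ± 0.754 CPM, and OPRPN, the precursor of the peptide opiorphin, from 1.2 ± 0.365 to 4.05 ± 0.925 CPM. KLRG2, a lectin-like receptor, had 13.3, 15.7 and 12.4 CPM with scramble, 11.2, 18.7 and 12 CPM with sh76 and 35.6, 51.2 and 28.6 CPM with sh78. Only the sh78 libraries stood apart, with a log2 fold change of 1.46 ± 0.09 (SE; quasi-likelihood adjusted p = 9.21e-16). SLC26A7, an anion exchanger, rose from 15.9 ± 4.89 to 39.9 ± 5.11 CPM, TSPAN18, a tetraspanin, from 3.45 ± 1.21 to 8.63 ± 3.38 CPM, and C14orf132 from 3.57 ± 0.719 to 10.2 ± 0.338 CPM. CST6, the protease inhibitor cystatin E/M, rose from 0.942 ± 0.185 to 2.23 ± 0.392 CPM, and was not called without scramble replicate 3 or without sh78 replicate 3.

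HSD17B10, a mitochondrial dehydrogenase, and DYNLRB1, a light chain of dynein, rose to similar levels with both hairpins. HSD17B10 had 39.8, 38.5 and 38.9 CPM with scramble, 102, 91.5 and 102 CPM with sh76 and 96, 102 and 89.5 CPM with sh78. DYNLRB1 had 38, 44 and 40.7 CPM with scramble, 86.2, 82.3 and 88.5 CPM with sh76 and 86.5, 90 and 87.7 CPM with sh78. In both genes the scramble libraries lay below all 6 hairpin libraries, and the sh78 log2 fold changes were 1.29 ± 0.06 (SE; quasi-likelihood adjusted p = 6.92e-21) and 1.11 ± 0.06 (SE; quasi-likelihood adjusted p = 4.75e-19). The sh78 and sh76 values differed by −0.04 ± 0.05 (SE; quasi-likelihood adjusted p = 0.652) for HSD17B10 and by 0.04 ± 0.05 (SE; quasi-likelihood adjusted p = 0.679) for DYNLRB1. RASL10B, a small GTPase of the RAS superfamily, rose from 44.2 ± 2.34 to 84.2 ± 2.57 CPM, LRRN1, a leucine-rich repeat membrane protein, from 90.9 ± 13.4 to 161 ± 21.1 CPM, and SYNPO, the actin-binding synaptopodin, from 60.5 ± 17.8 to 108 ± 28.6 CPM. SYNPO was not called without the block (quasi-likelihood adjusted p = 0.257), and replicate 1 lay below replicates 2 and 3 in both groups.

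**Figure D5:**
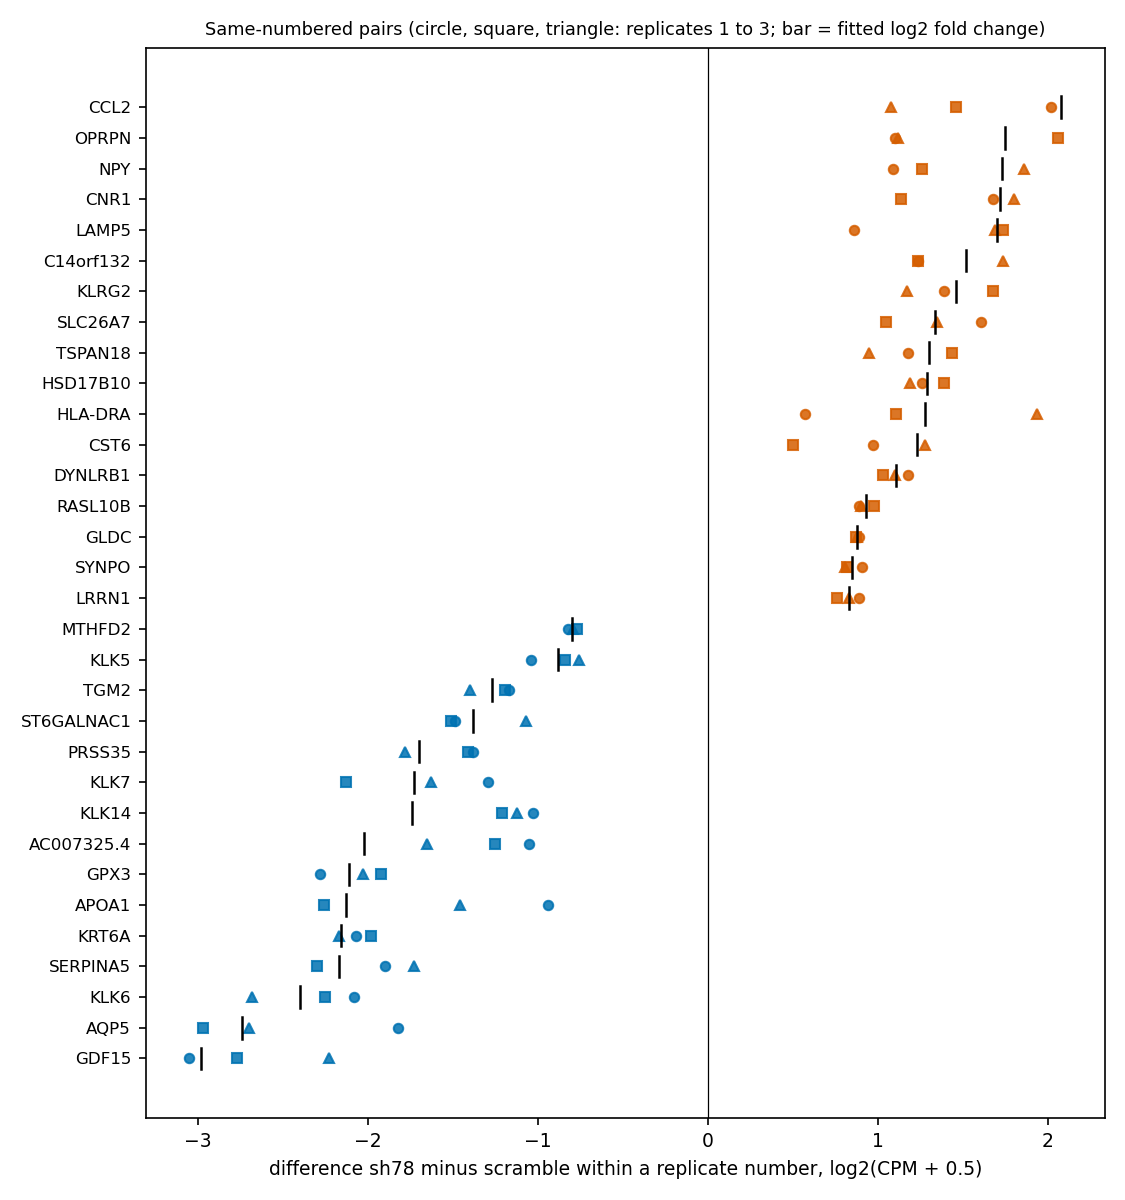
Difference of sh78 minus scramble within each replicate number on the log2(CPM + 0.5) scale (x axis; circle, square and triangle for replicates 1 to 3) for 32 ranked protein-coding genes (rows), with the fitted log2 fold change as a black bar. All pairs of a gene lie on the same side of 0, which the rule required of the genes ranked by fold change and of those ranked by p. The spread is narrow for GLDC, RASL10B and MTHFD2 and wide for HLA-DRA and APOA1.

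Outside protein-coding genes, LINC01936, a long intergenic RNA, had 3.34, 4.17 and 2.81 CPM with scramble and 0.323, 0.138 and 0.52 CPM with sh78, and it fell by 3.34 on the log2 scale with sh78 and by 3.15 with sh76. The groups did not overlap. Its sh78 libraries held 6, 2 and 8 counts, so this gene entered the test mainly through the scramble group. UNC5B-AS1 fell by 1.80 and overlaps UNC5B on the other strand, so that in libraries without strand its reads cannot be told from those of UNC5B. MT-TS1, a mitochondrial tRNA gene, fell to between 2 and 5 counts per sh78 library from 13 to 21. The immunoglobulin orphon IGKV1OR2-108 rose from 1.85 ± 0.258 to 6.63 ± 0.327 CPM. The lincRNA AC053513.1 and the antisense gene AP002449.1 rose from under 1 CPM, and were not called in 4 of 16 and 8 of 15 alternatives. Both lost their call without scramble replicate 2, scramble replicate 3 or sh78 replicate 2, and AP002449.1 also without scramble replicate 1 or sh76 replicate 3.

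Further lists are given by their counts. AP-1 and immediate early genes had 5 of 25 higher, among them JUND (0.29), and 4 lower, among them DUSP4 (−0.69) and MYC (−0.21). MYC was not called without replicate 1 or replicate 3 of either group. The higher count was 2 without scramble replicate 2, and the lower count was 1 without scramble replicate 1, scramble replicate 3 or sh78 replicate 3. Lysosome and autophagy genes had 7 of 33 lower and 2 higher, with the proteases CTSL and CTSB falling from 45.7 ± 0.735 to 28.7 ± 2.36 CPM and from 1069 ± 28.1 to 756 ± 37.3 CPM. The 2 higher calls were 0 without scramble replicate 1, scramble replicate 3 or sh78 replicate 1. Among serpins 4 of 13 were lower and 1 higher, and only 1 was lower without sh78 replicate 1. Cytosolic ribosomal proteins had 7 of 44 higher and 0 lower, all 7 by 0.15 or less on the log2 scale, and the count ran from 0 without sh78 replicate 1 to 14 without sh78 replicate 3. ERBB receptors and ligands had 1 of 14 higher, ERBB4 (0.27), and 0 lower. Cancer-testis antigens had 2 of 6 higher, of which PRAME rose from 168 ± 18.9 to 214 ± 5.59 CPM, and 0 lower; leaving out any single scramble or sh78 library left 1 called. Without the block 1 AP-1 gene, 2 lysosome genes and 1 serpin were lower, 1 cancer-testis antigen was higher, and 0 ribosomal proteins and 0 ERBB genes were called.

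Calls depended on the level of a gene. When the tested genes were split into 10 groups by mean FPKM over the scramble and sh78 libraries, 7.46% were called in the lowest group (0.0156 to 0.334 FPKM) and 36.6% in the highest (26.3 FPKM and more). The median size of the called log2 fold changes fell over the same groups from 1.37 to 0.21. In the highest group 22.5% were called lower and 14.1% higher, whereas in the lowest 3.29% were lower and 4.17% higher. The counts of the gene lists were not compared with genes of matched level. Protein-coding genes were called in 23.3%, lincRNAs in 7.45% and antisense genes in 4.55%. By chromosome, more genes were called lower than higher on chromosome 19 (12.9% and 4.86%), chromosome 16 (11.8% and 4.37%) and chromosome 20 (16.8% and 7.19%). On chromosome 15 (5.42% lower and 13.5% higher) and chromosome 9 (7.38% and 14%) more were called higher. Neighbouring genes called higher included SOX11, CMPK2, RSAD2, RNF144A-AS1 and RNF144A on chromosome 2, and BACE2, MX2, MX1 and TMPRSS2 on chromosome 21, where the median log2 fold changes were 0.89 and 0.73. SOX11, a neural transcription factor, rose from 102 ± 16.1 to 146 ± 26.3 CPM.

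Lastly, sh78 was compared with sh76 directly, with the same scramble libraries in the fit. In that comparison 3117 genes were called (18.3%), 1650 higher (9.69%) and 1467 lower (8.62%) with sh78, and 279 of them (1.64%) by at least 2-fold. The count was 1922 without sh78 replicate 1 and 629 without the block. Against scramble, sh76 had 3467 called genes (20.4%) beside the 3388 of sh78, of which 263 and 261 changed by at least 2-fold. The log2 fold change of GPX3 was −2.11 with sh78 and −1.22 with sh76. These 2 comparisons share their scramble libraries. Of the lists above, the keratins (10 lower of 16), the S100 proteins (9 of 11), the glycolysis and hypoxia genes (17 of 30), the endoplasmic reticulum genes (10 of 24) and the kallikreins (5 of 8) had many members lower with sh78 than with sh76, beside 8.62% of all tested genes.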

How the data were processed

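The authors deposited gene counts for 9 poly-A, non-directional libraries of OVCAR3 cells, and FPKM values made from them, which scale the counts for gene length and library size. Reads were aligned with HISAT2 2.0.5 to hg38 and counted with featureCounts 1.5.0-p3, per the submitters' processing notes; their settings are not given in the sources used here. All 58735 gene models matched GENCODE release 29 by identifier, start and end.

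The test was that of edgeR 4.0.16 under R 4.3.3 (filterByExpr with minimum count 10 and minimum total 15, TMM scaling, robust dispersions and robust quasi-likelihood F tests) on all 9 libraries, with 1 coefficient per group and a block for the replicate number (4 residual degrees of freedom, or 6 without it). The p-values were adjusted by Benjamini and Hochberg over 17023 genes. Fold changes are log2 values computed here from the deposited counts, and the SE is the log2 fold change divided by the root of F. Pairing rests on the labels' replicate numbers and a check of the deviations from the group means: r was 0.14 to 0.39 in all 9 same-numbered pairs and −0.31 to 0.06 in the 18 others. The common biological coefficient of variation was 4.69% with the block and 10.41% without. No library duplicated another: chi-square per degree of freedom was 4.9 to 11.068 within groups. The edgeR fit with the block was tested for sh78 against scramble on simulated counts. These took the fitted scramble means for every group, with changes set in some genes, and the trended dispersions. Such counts lack the scatter of dispersion between genes of the same level, so that test does not show how many of the calls above are false. The other fits were not tested in that way.

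Named genes were GPX3, GDF15, the 12 protein-coding genes of highest and the 12 of lowest log2 fold change (called, without overlap, same sign in 3 pairs, at least 1 FPKM in a group), the 6 with the smallest p in each direction, 3 other genes in each direction, and up to 4 called members of a list in each direction. The filters in brackets also held for the 6 genes ranked by p and the 3 other genes, but not for list members. Genes outside that rule, such as MX1, IFI44L, TRIB3, IL1R1, KDR and TNFAIP2, and the members picked for display, were chosen after their values were seen. The comparison, the lists and the markers were chosen with earlier results of these data known. Promoter sequences are RefSeq's (GRCh38.p14), matched by symbol. Alternatives were DESeq2 1.42.0, limma 3.58.1 on log2(FPKM + 1) and log2(FPKM + 0.1), other scaling and filters, and leaving out each library. A few members that the rule named are not reported here.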

Additional observations from a re-analysis of the deposited data

Results flagged for a closer look

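The direct comparison of sh78 with sh76 called 3117 genes (edgeR quasi-likelihood test with the replicate block), which marks a difference between the sh78 and sh76 libraries. Whether it came from the hairpins themselves was not tested. Genes of opposite direction included CNR1, with a log2 fold change of 1.72 with sh78 and −1.03 with sh76, ADAR with −0.41 and 0.19, and CD44 with −0.63 and 0.75.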

How the results depend on the processing

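The 3388 genes called for sh78 against scramble were 750 with no replicate block, 2253 with DESeq2, 2196 with limma on log2(FPKM + 1) and 2205 on log2(FPKM + 0.1). Leaving out single libraries gave 2341 to 3457. The 261 genes of at least 2-fold change were 135 with no replicate block, 149 with DESeq2, 35 on log2(FPKM + 1) and 141 on log2(FPKM + 0.1), and 214 to 275 with a library left out. The 3117 genes of sh78 against sh76 were 629 with no replicate block, 1935 with DESeq2, 1943 and 1912 on the FPKM scales, and 1922 (without sh78 replicate 1) to 3207 with a library left out. GPX3 was called in all alternatives, with log2 fold changes from −2.21 to −1.94, and so was GDF15, from −3.23 to −2.04. Of the 39 ranked genes 33 were called in every alternative that tested them (17, or 16 for MT-TS1) and 5 were lost with no replicate block; of all 249 named genes 106 and 140. No call changed sign. List medians changed sign in at least 1 alternative in 9 of 41 lists, whose medians lay between −0.16 and 0.06. The median size of the called log2 fold changes was 1.37 in genes under 0.334 FPKM. The cause of these differences between settings was not tested.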

Other observations

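A few genes had large fitted differences that were not called, and single libraries stood apart in them. H19, an imprinted long noncoding RNA, had 49.8 CPM in scramble replicate 1, 2.82 and 2.47 CPM in scramble replicates 2 and 3 and between 0.344 and 6.54 CPM in the 6 hairpin libraries (log2 fold change −4.01 for sh78, edgeR adjusted p = 0.207). MAGED4B, which has a near-identical copy, had 6.87 CPM in scramble replicate 2 and 4.06 CPM in sh76 replicate 3, and at most 0.617 CPM in the other 7 libraries (edgeR adjusted p = 0.445). EIF3CL, a copy of EIF3C, had 129.6 CPM in sh78 replicate 3 and 4.52 to 19.3 CPM in the other 8 libraries (edgeR adjusted p = 0.596), and how reads were divided between the copies is not given in the sources used here.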
